A study of Homo sapiens with 4 samples.

Results

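Homologous recombination and Fanconi repair genes were examined in Huh1 and Huh7, a pair of established human hepatocellular carcinoma (HCC) cell lines. The 38 genes were chosen by name for their place in these pathways and were found by gene symbol in the deposited tables. They occupied 39 of the 18398 lines of each table, because RAD54B had 2 lines, NM_001205262 and NM_001205263. The tables together held 18382 symbols. The study lowered CDCA8 (borealin), a subunit of the chromosomal passenger complex that guides chromosome segregation, to learn which transcripts follow its loss in HCC cells. Each cell line was treated with a negative control siRNA (NCsiRNA) or with an siRNA against CDCA8 (CDCA8siRNA, the variant CDCA8-1) at 15 nM, and RNA was collected 48 h later. There were 4 libraries, 1 for each line and siRNA. All 4 came from cells that received cationic lipid and an siRNA, so untreated cells were not analysed here. The effect was read with 1 siRNA sequence against CDCA8, and each line is a single established culture.

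Homologous recombination repairs a broken chromosome by copying the intact sister. Nucleases resect the broken ends, the exposed strand is made to pair with its intact copy with the help of BRCA2 and its partners, and helicases and nucleases then take the joined molecules apart. The Fanconi pathway unhooks DNA crosslinks. Its core complex ubiquitinates the FANCI and FANCD2 pair, and the break that follows is passed to homologous recombination. The genes are known to be used mostly in S and G2 phase, and inherited loss of several of them causes Fanconi anaemia or breast and ovarian cancer predisposition.

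The value of each line was an RPKM, a read density scaled to transcript length and library depth. The depth as the values show it was between 12197606 reads (Huh7 with NCsiRNA) and 13384836 reads (Huh1 with NCsiRNA) per library. CDCA8 itself was at 24.1 RPKM in Huh1 with NCsiRNA and 5.86 with CDCA8siRNA, and at 51.5 and 7.36 RPKM in Huh7. That left 24.3% of the control level in Huh1 and 14.3% in Huh7 (limma, log2 fold change -2.26 ± 0.162 SE, adjusted p = 0.000542). All 10 hepatic markers were detected in every library, and their summed level was 5375 and 4130 RPKM in Huh1 and 3358 and 2354 RPKM in Huh7, with NCsiRNA first. Of 8 markers of other liver cell types, 7 were measured and summed to 23.5 and 16.7 RPKM in Huh1 and 113 and 134 RPKM in Huh7. The macrophage marker CD68 made up most of that sum in Huh1, and the collagen gene COL1A1 most of it in Huh7, at 107 and 125 RPKM against 0.115 and 0.122 in Huh1. The endothelial marker VWF was listed at 0 in 3 libraries. The T cell marker CD3E and the fibroblast marker DCN were listed at 0 in both Huh1 libraries. PTPRC and COL3A1 were at 0 in Huh1 with NCsiRNA, and at 0.00474 and 0.0414 RPKM with CDCA8siRNA. In Huh7 with NCsiRNA, PTPRC, CD3E, COL3A1 and DCN were at 0.0769, 0.0542, 1.89 and 0.136 RPKM. With CDCA8siRNA these Huh7 values were 0.417, 0.162, 4.14 and 0.406 RPKM. In bulk RNA, fewer cells of a kind and less RNA per cell cannot be told apart.

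Promoter sequences are shown for the 3 genes with the smallest p in the knockdown comparison for which a sequence was at hand: RAD51AP1 and XRCC2, which both assist strand exchange, and GEN1, a nuclease that cuts crossed strands. Each window runs from 250 bases before to 50 bases after the annotated gene start in RefSeq on GRCh38.p14. Capitals mark the letters of the motifs searched. The RAD51AP1 window lies at chr12:4538640-4538939 on the plus strand, and its capitals, bases 181 to 185, are a CCAAT box read on the other strand. The XRCC2 window lies at chr7:152676092-152676391 on the minus strand, with an E2F-like match at bases 272 to 279. The GEN1 window lies at chr2:17753619-17753918 on the plus strand, with an E2F-like match at bases 252 to 259.
RAD51AP1: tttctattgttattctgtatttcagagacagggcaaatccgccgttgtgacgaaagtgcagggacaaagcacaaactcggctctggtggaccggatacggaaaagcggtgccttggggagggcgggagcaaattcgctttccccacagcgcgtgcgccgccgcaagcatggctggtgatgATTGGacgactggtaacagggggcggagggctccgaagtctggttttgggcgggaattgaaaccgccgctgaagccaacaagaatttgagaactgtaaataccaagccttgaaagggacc
XRCC2: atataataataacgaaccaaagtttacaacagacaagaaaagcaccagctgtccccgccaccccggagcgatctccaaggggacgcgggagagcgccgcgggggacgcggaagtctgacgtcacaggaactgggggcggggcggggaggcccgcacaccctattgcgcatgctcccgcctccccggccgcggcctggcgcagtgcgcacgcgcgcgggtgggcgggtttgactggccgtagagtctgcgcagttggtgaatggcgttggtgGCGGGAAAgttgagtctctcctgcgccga
GEN1: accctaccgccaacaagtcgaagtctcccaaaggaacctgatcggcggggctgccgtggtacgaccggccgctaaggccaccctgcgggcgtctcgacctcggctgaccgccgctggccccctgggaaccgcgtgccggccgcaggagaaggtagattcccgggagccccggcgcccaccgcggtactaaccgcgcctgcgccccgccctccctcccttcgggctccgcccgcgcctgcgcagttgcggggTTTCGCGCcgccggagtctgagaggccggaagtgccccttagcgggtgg

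The motifs were searched on both strands in all windows, of which 34 belonged to members of the 38 genes. DNA2, FANCI, NBN and RAD54B had no entry in the table. The E2F-like letters were TTTGGCGC, TTTCGCGC, TTTCCCGC and TTTGCCGC, and E2F factors are known as regulators of S phase genes. They were found in 6 of the 34 windows, those of EXO1, FANCA, FANCC, FANCD2, GEN1 and XRCC2. That was 17.6% of the windows, against 3.31% of 35116 windows of the same length. The CCAAT box (CCAAT) was in 16 of the 34 windows, or 47.1%, against 34.6% of all windows. The CHR element (TTTGAA), known from G2/M promoters, was in 3 of the 34 windows (ATM, BRIP1 and FANCC), or 8.82%, against 15.2% of all windows. None of these motifs contains another. A match of letters is a description of the window and not a binding site.

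All 39 lines were expressed in all 4 libraries, and all passed the minimum of 1 RPKM in at least 1 library of each cell line that was set for testing. Their median level was 11.3 RPKM in Huh1 with NCsiRNA, 11.4 in Huh1 with CDCA8siRNA, 9.58 in Huh7 with NCsiRNA and 8.79 in Huh7 with CDCA8siRNA. The medians over all 10357 genes tested were 12.6, 12.9, 13.7 and 13.9 RPKM in the same order. The median of the recombination and Fanconi genes thus lay below that of all genes in each library, with single members on either side. The lowest in every library was HELB, a helicase known to limit end resection, at 1.44 and 0.855 RPKM in Huh1 and 1.31 and 0.992 RPKM in Huh7. The highest was CHEK1, a checkpoint kinase, in Huh1 (32.0 and 39.2 RPKM) and FANCI in Huh7 (38.5 and 30.8 RPKM). The lines rested on 38 to 2148 reads per library, and the SD that read sampling alone gives to a log2 fold change ranged from 0.0448 (ATM in Huh1) to 0.203 (the short RAD54B line in Huh7). This SD covers counting error and holds no variation between cultures.

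**Figure D1:**
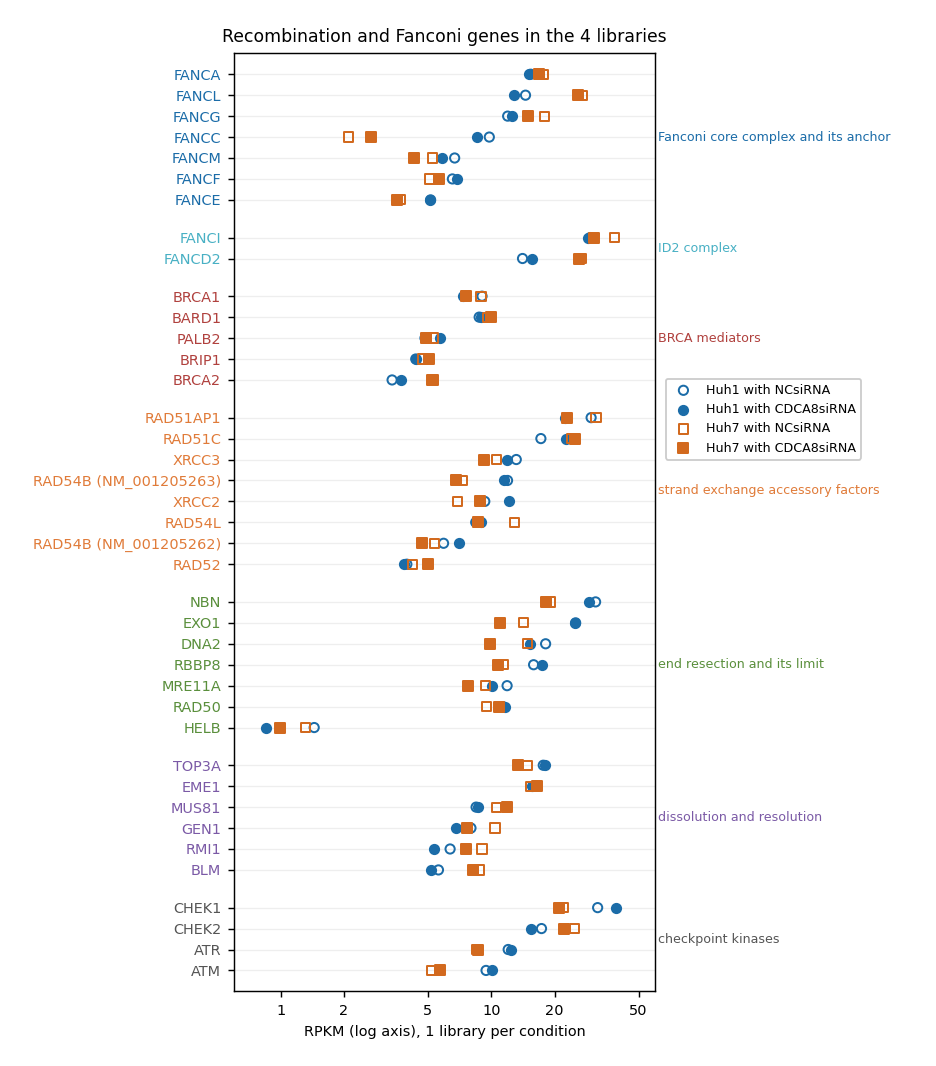
The level of each of the 39 lines (rows, grouped by role) in RPKM on a log axis, with circles for Huh1, squares for Huh7, open symbols for NCsiRNA and filled symbols for CDCA8siRNA, 1 library per symbol. In 32 of the 39 rows the circles and squares do not overlap, and the same holds for 77.6% of all genes tested. HELB has the lowest values and FANCC has the widest gap between the cell lines.

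The first comparison was CDCA8siRNA against NCsiRNA. RAD51AP1 fell in both lines and was 1 of 39 lines to pass the test, while 0 rose. In a limma fit to log2(RPKM + 1) with the cell line as a covariate, an adjusted p under 0.05 was reached by 10.2% of all genes tested (6.03% higher and 4.21% lower), and by 2.56% of the lines of the recombination and Fanconi genes. At an unadjusted p under 0.05 there were 4 lines, RAD51AP1, DNA2, XRCC2 and GEN1, and 2694 of all 10357 genes tested. The cell lines stood in for replicates in this fit, so its p-values measure how alike both lines changed and not the spread between transfections. The median log2 fold change of the 39 lines was -0.0432, that of all genes tested was 0.0259, and quantile normalization gave -0.0766 and -0.00262. The SE of a line's log2 fold change ranged from 0.0947 to 0.157.

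Within a cell line, 1 library was compared with 1 library and no test was possible. None of the 39 lines reached a 1.5-fold difference in either cell line on the log2(RPKM + 1) scale. Among all genes above the minimum, 3.75% did so in Huh1 and 8.72% in Huh7, and 0.494% and 1.57% reached 2-fold. The log2 fold changes ran from -0.40 (RAD51AP1) to 0.38 (RAD51C) in Huh1 and from -0.54 (DNA2) to 0.31 (XRCC2) in Huh7. As plain ratios of RPKM they ran from 0.593 (HELB) to 1.32 (RAD51C) in Huh1 and from 0.665 (DNA2) to 1.28 (FANCC) in Huh7. On these ratios, without the pseudocount, HELB in Huh1 and DNA2 in Huh7 were past 1.5-fold. In Huh1, 22 lines had a value below 0 and 17 above, and in Huh7 the numbers were 26 and 13. Values were below 0 in both cell lines for 18 lines (46.2% of them, against 30.5% of all genes). They were above 0 in both for 9 lines (23.1%, against 39% of all genes). They stood on opposite sides for 12 lines (30.8%), and for 3166 of all 10357 genes tested. Under quantile normalization the numbers of lines were 18, 4 and 17. Over all genes these directions were not counted under that setting, which moved the median of all genes from 0.0259 to -0.00262. In 4 lines (RAD51AP1, BRCA1, GEN1 and HELB) both CDCA8siRNA values lay under both NCsiRNA values, and values of the siRNAs did not overlap in 17.6% of all genes tested.

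**Figure D2:**
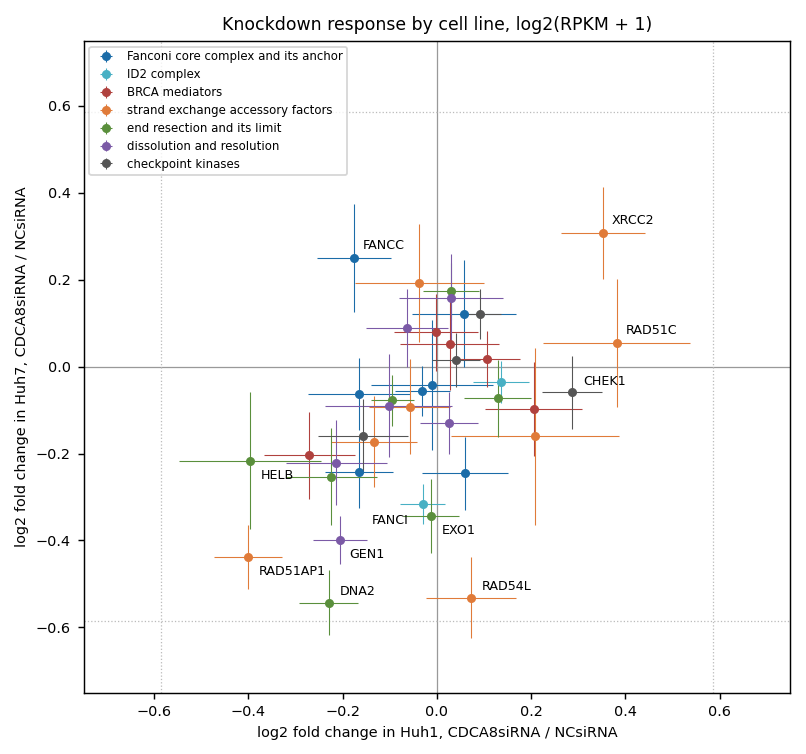
The log2 fold change (CDCA8siRNA over NCsiRNA, on log2(RPKM + 1)) in Huh1 on the x axis and in Huh7 on the y axis for the 39 lines, coloured by role, with bars for the SD from read sampling (1 library against 1) and dotted lines at 1.5-fold. No point crosses a dotted line; RAD51AP1 lies at -0.40 and -0.44, XRCC2 at 0.35 and 0.31, and RAD54L at 0.07 and -0.53.

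The Fanconi core complex and FANCM, its anchor on DNA, had 7 lines, and none passed the limma test or had an unadjusted p under 0.05. Their median log2 fold change over both lines was -0.0432 (-0.107 under quantile normalization). FANCM was at 6.70 and 5.86 RPKM in Huh1 and 5.24 and 4.28 RPKM in Huh7, a log2 fold change of -0.20 ± 0.118 (SE, limma, adjusted p = 0.315). It was lower with CDCA8siRNA in each cell line, while the Huh1 value with CDCA8siRNA was above both Huh7 values. FANCL, the ubiquitin ligase of the complex, was at 14.5 and 12.8 RPKM in Huh1 and 26.9 and 25.7 RPKM in Huh7. FANCC, a structural subunit, was at 9.78 and 8.54 RPKM in Huh1 and 2.10 and 2.68 RPKM in Huh7, so its fold changes stood on opposite sides of 0. FANCG, another scaffold subunit, was at 11.96 and 12.5 RPKM in Huh1 and 17.9 and 14.9 RPKM in Huh7, again on opposite sides of 0. FANCA, FANCE and FANCF, further subunits of the complex, had log2 fold changes of -0.04, -0.03 and 0.09 over both lines.

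Of the ID2 complex, the pair that the core complex ubiquitinates, neither gene passed the limma test or had an unadjusted p under 0.05. FANCI was at 29.5 and 28.9 RPKM in Huh1 and 38.5 and 30.8 RPKM in Huh7, with log2 fold changes of -0.03 and -0.32. FANCD2 was at 14.1 and 15.6 RPKM in Huh1 and 26.8 and 26.2 RPKM in Huh7, with 0.14 and -0.04. The larger of these differences was that of FANCI in Huh7, which went from about 2148 to 1724 reads. FANCD2 has near-identical pseudogene copies, and its level is uncertain where reads were divided between them.

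The BRCA mediators prepare resected DNA for strand exchange, and 0 of 5 passed the limma test or had an unadjusted p under 0.05. BRCA1, the ubiquitin ligase that promotes resection and recruits PALB2, had the lowest log2 fold change of the group. It was at 9.03 and 7.32 RPKM in Huh1 and 8.92 and 7.62 RPKM in Huh7. Both CDCA8siRNA values were under both NCsiRNA values, with a log2 fold change of -0.24 ± 0.110 (SE, limma, adjusted p = 0.211). BRCA2, the central mediator of strand exchange, was at 3.38 and 3.71 RPKM in Huh1 and 5.20 and 5.28 RPKM in Huh7. BARD1, the partner of BRCA1, was at 8.76 and 8.94 RPKM in Huh1 and 9.58 and 9.96 RPKM in Huh7. PALB2, which bridges BRCA1 and BRCA2, and the helicase BRIP1 had log2 fold changes of 0.05 and 0.04 over both lines. The values of BARD1, BRCA2, PALB2 and BRIP1 were above 0 as deposited and slightly below 0 after quantile normalization. BRCA1 shares sequence with a partial pseudogene copy, which leaves its level uncertain.

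Among the strand exchange accessory factors, 1 of 8 lines passed the limma test and 2 had an unadjusted p under 0.05. RAD51AP1 was at 29.8 RPKM in Huh1 with NCsiRNA and 22.3 with CDCA8siRNA, and at 31.4 and 22.9 RPKM in Huh7. Both CDCA8siRNA values lay under both NCsiRNA values, and the 2 cell lines were almost alike under each siRNA. The transcript kept 74.9% of its control level in Huh1 and 73.0% in Huh7, on 884 and 653 reads and on 849 and 623 reads. RAD51AP1 fell by 0.42 on the log2 scale (± 0.0947 SE, limma, adjusted p = 0.0259; 0.00490 to 1.00 over the alternatives). The call was lost without the filter on low values (adjusted p = 0.252), without the cell line covariate and without the variance trend (adjusted p = 0.0523).

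XRCC2 had the highest log2 fold change of the 39 lines, opposite in direction to RAD51AP1. It was at 9.31 and 12.2 RPKM in Huh1 and 6.91 and 8.79 RPKM in Huh7, or 0.33 ± 0.108 (SE, limma, adjusted p = 0.0882), and did not pass. It was higher with CDCA8siRNA in 2 of 2 cell lines, while the Huh7 value with CDCA8siRNA was still under the Huh1 value with NCsiRNA. RAD51C, another accessory factor, was at 17.2 and 22.7 RPKM in Huh1 but 24.0 and 24.97 RPKM in Huh7 (limma, adjusted p = 0.251). Its line is a short transcript with 136 to 181 reads per library. XRCC3, which pairs with RAD51C, was at 13.1 and 11.9 RPKM in Huh1 and 10.6 and 9.25 RPKM in Huh7.

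RAD54L, a motor protein that moves along DNA, had the largest difference between the cell lines in its response. It was at 8.43 and 8.91 RPKM in Huh1 and at 12.9 and 8.62 RPKM in Huh7, where 66.8% of the control level remained. With NCsiRNA, Huh7 thus stood above Huh1, and with CDCA8siRNA the levels were close. The difference between the 2 log2 fold changes was -0.60, or 4.51 times the SD from read sampling, and there was no replicate to test it with. RAD52, which anneals single strands, was at 3.97 and 3.84 RPKM in Huh1 and 4.23 and 4.98 RPKM in Huh7. The lines of RAD54B, a relative of RAD54L, were at 5.93 and 7.01 RPKM in Huh1 and 5.37 and 4.69 RPKM in Huh7 for NM_001205262, and at 11.9 and 11.4 RPKM in Huh1 and 7.28 and 6.76 RPKM in Huh7 for NM_001205263. They share a gene, so reads could be assigned to either line.

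The resection genes had the lowest median log2 fold change of the 7 roles, at -0.178 (-0.207 under quantile normalization), and 0 of 7 passed the limma test, with 1 at an unadjusted p under 0.05. DNA2, the nuclease of long-range resection, had the smallest p after RAD51AP1. It was at 18.1 and 15.3 RPKM in Huh1 and at 14.8 and 9.84 RPKM in Huh7. The value was lower with CDCA8siRNA in each cell line, with 84.5% and 66.5% of the control level remaining. The Huh1 value with CDCA8siRNA was still above the Huh7 value with NCsiRNA. The log2 fold change was -0.39 ± 0.114 (SE, limma, adjusted p = 0.0633; 0.0149 to 1.00 over the alternatives). It passed an adjusted p under 0.05 after quantile normalization and under none of the other settings run.

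MRE11A, the nuclease that starts resection, was at 11.9 and 10.02 RPKM in Huh1 and 9.41 and 7.73 RPKM in Huh7 (limma, log2 fold change -0.24, adjusted p = 0.196). Its partners had values nearer to 0. RAD50, the ATPase of the complex, was at 11.3 and 11.6 RPKM in Huh1 and 9.52 and 10.9 RPKM in Huh7. NBN, the other subunit, had a log2 fold change of -0.09 over both lines. EXO1, a nuclease that works in parallel with DNA2, was at 25.1 and 24.9 RPKM in Huh1 and at 14.2 and 11.0 RPKM in Huh7, on 1074 and 1049 and on 553 and 430 reads. RBBP8 (CtIP), which activates MRE11A, was at 15.9 and 17.4 RPKM in Huh1 and 11.4 and 10.8 RPKM in Huh7.

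HELB had both CDCA8siRNA values under both NCsiRNA values, on 65 and 38 reads for Huh1 and 54 and 41 for Huh7. Over both lines its change was -0.31 ± 0.157 on the log2 scale (SE, limma, adjusted p = 0.258) and did not pass. With a pseudocount of 0.1 in place of 1 RPKM, its log2 fold change within Huh1 was -0.69, past 1.5-fold. HELB is among the genes that the study itself drew as lowered from these same libraries, so its direction is not independent evidence. In the deposited values HELB kept 59.3% of its control level in Huh1 and 75.5% in Huh7, short of the study's 2-fold threshold.

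Of the genes of dissolution and resolution, which separate joined chromosomes, 0 of 6 passed the limma test and 1 had an unadjusted p under 0.05. GEN1 was at 8.005 and 6.81 RPKM in Huh1 and 10.4 and 7.65 RPKM in Huh7, a log2 fold change of -0.30 ± 0.114 (SE, limma, adjusted p = 0.130). RMI1, a scaffold of the BLM complex, was at 6.37 and 5.36 RPKM in Huh1 and 9.04 and 7.61 RPKM in Huh7, or 84.1% and 84.2% of the control level (limma, adjusted p = 0.262). Both genes were lower with CDCA8siRNA in each cell line. BLM, the helicase of that complex, was at 5.61 and 5.16 RPKM in Huh1 and 8.80 and 8.21 RPKM in Huh7. TOP3A, its topoisomerase, was at 17.6 and 18.0 RPKM in Huh1 and 14.8 and 13.4 RPKM in Huh7. MUS81 and EME1, the subunits of a second resolving nuclease, had log2 fold changes of 0.09 and 0.01 over both lines.

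None of the 4 checkpoint kinases passed the limma test or had an unadjusted p under 0.05. CHEK1, which acts downstream of ATR, was at 32.0 and 39.2 RPKM in Huh1 and at 22.0 and 21.0 RPKM in Huh7, with log2 fold changes of 0.29 and -0.06. Its highest value was thus in Huh1 with CDCA8siRNA, and the Huh1 values rested on 871 and 1053 reads. CHEK2, which acts downstream of ATM, was at 17.3 and 15.4 RPKM in Huh1 and 24.9 and 22.2 RPKM in Huh7, and 89.1% of the control level remained in each line (limma, adjusted p = 0.349). CHEK2 has several near-identical pseudogene copies, and its level is uncertain. ATM and ATR, the kinases that sense breaks and exposed single strands, had log2 fold changes of 0.11 and 0.03 over both lines.

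The second comparison was Huh7 against Huh1, from the same fit, with the siRNAs of a cell line standing in for replicates. Of the 39 lines, 24 passed the test, 9 higher and 15 lower in Huh7 than in Huh1, which was 61.5% against 67.7% of all genes tested (39.1% higher and 28.7% lower). After quantile normalization, 24 lines passed as well, 6 higher and 18 lower, and 7139 of all genes passed, 3436 higher and 3703 lower. Quantile normalization moved the median of all genes by -0.125 on the log2 scale and that of the 39 lines by -0.236. The call was lost under at least 1 alternative for 12 of the 24 lines (BRCA2, DNA2, FANCE, FANCG, FANCM, MRE11A, MUS81, RAD51C, RMI1, TOP3A, XRCC2 and XRCC3). Levels in Huh1 and Huh7 did not overlap in 32 of the lines, against 77.6% of all genes. The median absolute log2 difference between the cell lines was 0.340 for these lines, while the median absolute log2 fold change with CDCA8siRNA was 0.0961. The same medians over all genes tested were 0.464 and 0.139. COL1A1, CD68 and the summed hepatic markers also differed between the cell lines, as given above, and their part in these differences was not tested.

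**Figure D3:**
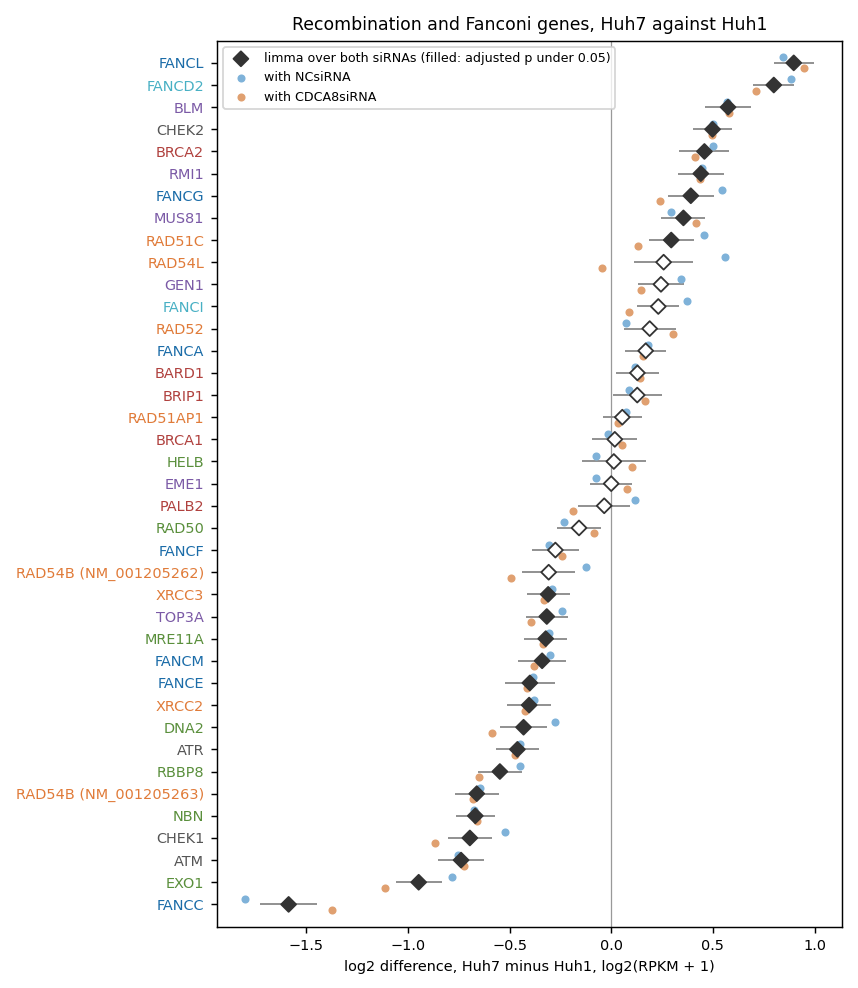
The log2 difference between Huh7 and Huh1 on log2(RPKM + 1) for the 39 lines in order, with diamonds and bars for the limma estimate and its SE (filled where the adjusted p was under 0.05) and small points for the difference with each siRNA. FANCL (0.90) and FANCD2 (0.80) are at the upper end and FANCC (-1.59) and EXO1 (-0.95) at the lower end; the points of RAD54L lie farthest from each other.

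In the Fanconi core complex, 2 of 7 lines were higher in Huh7 and 3 lower, against 39.1% and 28.7% of all genes tested. FANCC had the widest difference of all 39 lines: the level in Huh1 was 4.67 times that in Huh7 with NCsiRNA and 3.19 times with CDCA8siRNA (limma, log2 difference -1.59 ± 0.139 SE, adjusted p = 7.0e-06). FANCL went the other way, with 1.85 and 2.00 times the Huh1 level in Huh7 (limma, log2 difference 0.90, adjusted p = 3.5e-05). FANCG was also higher in Huh7 (limma, log2 difference 0.39, adjusted p = 0.0121). FANCE (limma, log2 difference -0.40, adjusted p = 0.0157) and FANCM (-0.34, adjusted p = 0.0277) were lower. Genes of 1 complex thus differed between the cell lines in both directions. FANCD2 in Huh7 was 1.91 and 1.68 times the Huh1 level (limma, log2 difference 0.80, adjusted p = 8.5e-05), and FANCI, its partner, had a difference of 0.23 that did not pass (limma, adjusted p = 0.0728).

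The resection genes were lower in Huh7 in 5 of 7 lines and higher in none. Of all genes tested, 28.7% passed as lower in Huh7 and 39.1% as higher. EXO1 in Huh1 was 1.77 and 2.27 times the Huh7 level (limma, log2 difference -0.95, adjusted p = 5.6e-05). NBN in Huh1 was 1.63 and 1.61 times the Huh7 level, close to each other under both siRNAs (limma, log2 difference -0.67, adjusted p = 0.000188). RBBP8 (limma, log2 difference -0.55, adjusted p = 0.00138), DNA2 (-0.43, adjusted p = 0.00757) and MRE11A (-0.32, adjusted p = 0.0229) were lower too. RAD50 and HELB did not pass, and HELB differed by 0.01 as deposited and by -0.34 after quantile normalization.

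All 4 checkpoint kinases passed, 3 of them lower in Huh7. Of all genes tested, 67.7% passed, and 28.7% did so as lower in Huh7. The level in Huh1 was 1.82 and 1.77 times that in Huh7 for ATM (limma, log2 difference -0.74, adjusted p = 0.000270) and 1.46 and 1.86 times for CHEK1 (-0.70, adjusted p = 0.000358). ATR was lower in Huh7 as well (limma, log2 difference -0.46, adjusted p = 0.00352). CHEK2 in Huh7 was 1.44 times the Huh1 level under each siRNA (limma, log2 difference 0.50, adjusted p = 0.00138).

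Of the dissolution and resolution genes, 3 of 6 were higher in Huh7 and 1 lower, against 39.1% and 28.7% of all genes tested. BLM in Huh7 was 1.57 and 1.59 times the Huh1 level (limma, log2 difference 0.57, adjusted p = 0.00140) and RMI1 1.42 times it under each siRNA (0.44, adjusted p = 0.00629). TOP3A, of the same complex, was lower (limma, log2 difference -0.32, adjusted p = 0.0211). MUS81 was higher (limma, log2 difference 0.36, adjusted p = 0.0157), but the call of MUS81 was lost after quantile normalization (0.23, adjusted p = 0.0842), without the filter (adjusted p = 0.0518) and without the siRNA covariate (adjusted p = 0.0618). EME1, its partner, differed by less than 0.001 on the log2 scale, between values of 15.4 and 16.5 RPKM in all 4 libraries.

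The BRCA mediators had the smallest median absolute log2 difference between the cell lines of the 7 roles, at 0.128. BRCA2 was higher in Huh7 (limma, log2 difference 0.46, adjusted p = 0.00833), a call lost after quantile normalization (0.24, adjusted p = 0.126) and without the filter (adjusted p = 0.0502). The other 4 did not pass, with differences from -0.03 (PALB2) to 0.13 (BARD1). Among the strand exchange factors, RAD51C was higher in Huh7 (limma, log2 difference 0.30, adjusted p = 0.0377), but this call was lost under 5 of 7 alternatives, with adjusted p from 0.0570 to 0.174. The longer RAD54B line (-0.66, adjusted p = 0.000443), XRCC2 (-0.40, adjusted p = 0.00811) and XRCC3 (-0.31, adjusted p = 0.0249) were lower. RAD51AP1, which fell with CDCA8siRNA, had a difference of 0.05 between the cell lines that did not pass (limma, adjusted p = 0.625).

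Genes of related pathways were counted in the same fit. Among 43 further recombination and Fanconi genes tested, SFR1, a partner of SWI5 in recombination, rose and none fell. SFR1 was at 6.73 and 11.8 RPKM in Huh1 and 6.67 and 11.1 RPKM in Huh7 (limma, log2 fold change 0.69 ± 0.109 SE, adjusted p = 0.00700). None of 15 genes of break choice and end joining, 7 of mismatch repair and 18 of nucleotide excision repair passed. An unadjusted p under 0.05 was reached by 1, 2 and 3 of them, and by 2694 of all 10357 genes tested. Of 18 base excision repair genes, TDG, a thymine glycosylase, rose from 20.4 to 29.3 RPKM (Huh1) and 29.8 to 41.3 RPKM (Huh7) (limma, adjusted p = 0.0157). The median log2 fold changes of these lists lay between -0.0718 (base excision repair) and -0.00468 (nucleotide excision repair).

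Cell cycle genes and hepatic markers were read from the same fit. Of 19 G1/S genes 7 fell and 0 rose, and their median log2 fold change was -0.270. SLBP, which processes histone mRNA, fell from 32.7 to 17.3 RPKM (Huh1) and 79.3 to 33.5 RPKM (Huh7) (limma, adjusted p = 0.00129). PCNA, the clamp of the replication fork, fell from 109 to 72.8 RPKM (Huh1) and 194 to 71.9 RPKM (Huh7) (limma, adjusted p = 0.00785). Of 19 G2/M genes 5 fell and 1 rose, with a median of -0.208, and NUSAP1, a spindle protein, fell from 37.7 to 17.4 RPKM (Huh1) and 95.3 to 32.8 RPKM (Huh7) (limma, adjusted p = 0.000870). The gene that rose was BIRC5 (survivin), a partner of CDCA8 in the chromosomal passenger complex, with a log2 fold change of 0.48 (limma, adjusted p = 0.0450), and it is named here after its values were seen. Of 10 hepatic markers 8 fell, albumin (ALB) among them, from 3447 to 2684 RPKM (Huh1) and 1166 to 721 RPKM (Huh7) (limma, adjusted p = 0.00587). These genes moved in the same libraries as RAD51AP1, and their part in its fall was not tested.

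**Figure D4:**
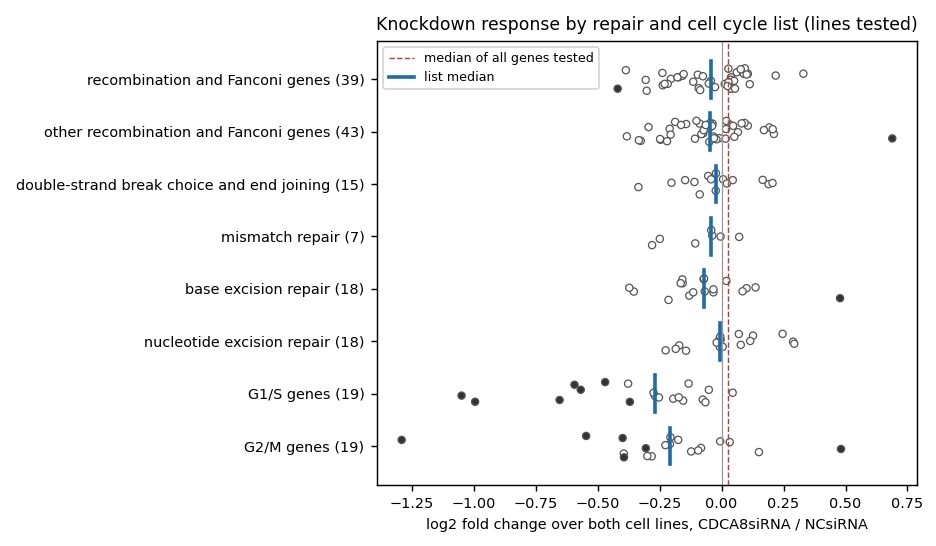
The limma log2 fold change (CDCA8siRNA over NCsiRNA, both cell lines together) on the x axis for each line of the repair and cell cycle lists, filled where the adjusted p was under 0.05, with blue bars for list medians and a dashed line for the median of all genes tested; the points are spread vertically for legibility. The repair lists have 1 filled point or none each, while the G1/S list has 7 and the G2/M list 6.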

How the data were processed

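RNA of Huh1 and Huh7 cells with NCsiRNA or CDCA8siRNA was sequenced in 4 TruSeq libraries, 1 per condition, grouped by their labels. The authors deposited RPKM values for each transcript and symbol, and the unit was deduced from the values. The submitters' processing notes name CASAVA 1.8.2, TopHat2 2.0.9 and hg19, while the counter, annotation and filters are not given in the sources used here. The members and the gene lists were chosen with earlier results of these data known.

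The log2(RPKM + 1) of 10357 genes that reached 1 RPKM in 1 or more libraries of both lines was modelled by limma 3.58.1 (R 4.3.3) with cell line and siRNA as terms, a variance trend, 1 residual and 8.29 prior degrees of freedom, and Benjamini-Hochberg adjustment over all genes. Both libraries of a cell line were thus taken as a pair; the labels give no replicate numbers. The study's ANOVA needs replicates and was not run. A pseudocount understates the change of low genes. The smallest length from 300 to 16000 bases that made a line's 4 values whole reads (within 0.012) gave read numbers for 14 lines, steps of 0.5 reads for 6, and GENCODE 29 lengths were used for 19. Taking the smallest length can make read numbers too low. All members found are named, and of other lists up to 3 called genes with the smallest p. PECAM1, PRKDC, UVSSA, APITD1 and RECQL4 were not analysed here. The result of 1 recombination gene is not reported here. Steps were tested on simulated data. Alternatives changed the pseudocount (0.1), the minimum (none or 5 RPKM), the scaling (quantile, upper quartile), the covariates, the trend and the adjusted p (0.1), and GENCODE lengths for all read numbers were added after seeing the data.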

Additional observations from a re-analysis of the deposited data

Results flagged for a closer look

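For 12 of the 39 lines (30.8%) the value with CDCA8siRNA was above NCsiRNA in 1 cell line and below it in the other. The same held for 3166 of all 10357 genes tested, a share close to that of the lines. There was 1 library per condition, so none of these differences was tested. The Huh7 log2 fold change minus that in Huh1 was -0.604 for RAD54L, -0.369 for RAD54B (NM_001205262), -0.346 for CHEK1, -0.305 for FANCG, -0.302 for PALB2, -0.202 for RBBP8, -0.171 for FANCD2 and -0.155 for TOP3A. It was 0.426 for FANCC, 0.231 for RAD52, 0.152 for EME1 and 0.0812 for BRIP1. Against the SD that read sampling alone gives to this difference, RAD54L was at 4.51 times, CHEK1 at 3.26 times, FANCC at 2.90 times and BRIP1 at 0.646 times.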

How the results depend on the processing

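Of the 39 lines, 1 passed the knockdown test as reported, and 0 did so without the filter on low values, without the cell line covariate or without the variance trend. Quantile normalization gave 2 (RAD51AP1 and DNA2), and an adjusted p under 0.1 gave 3 (with XRCC2). Over all genes the 1061 calls became 0 without the filter, 0 without the cell line covariate and 1687 at an adjusted p under 0.1. They became 710 without the variance trend and 1488 after quantile normalization. The 24 lines that differed between Huh7 and Huh1 became 15 without the filter and 14 without the siRNA covariate, while the 7016 calls over all genes became 8690 (of 17039 tested) and 5176. Leaving out the siRNA covariate ended the calls of DNA2, FANCG, FANCM, MRE11A, MUS81, RAD51C, RMI1, TOP3A, XRCC2 and XRCC3. A 1.5-fold difference was reached by 1 line in Huh1 with a pseudocount of 0.1 RPKM (HELB) and by 2 lines in Huh7 after quantile normalization (RAD54L and DNA2). After quantile normalization the knockdown value turned from above to below 0 for BARD1 (-0.00666), BRCA2 (-0.00570), BRIP1 (-0.0200), PALB2 (-0.00943), FANCC (-0.0199), RAD54B (NM_001205262) (-0.0480), ATR (-0.0241), EME1 (-0.00665) and RBBP8 (-0.00332), and the Huh7 minus Huh1 value for BRCA1 (-0.123), BRIP1 (-0.0830), RAD51AP1 (-0.0360), RAD52 (-0.0309) and HELB (-0.335). Upper quartile scaling did so for BRCA1 (-0.0307) and HELB (-0.0166) between the cell lines. None of these passed the test as reported, and the cause was not tested. Of 267 other-setting values of the lines in each comparison, 254 kept direction and call in the knockdown comparison and 228 between the cell lines. The fit as reported took both libraries of a cell line as a pair, and the setting without the cell line covariate is its unpaired form. No replicate could be left out with 1 library per condition. At this depth, sampling of reads alone gives HELB a log2 SD of 0.151 (Huh1) and 0.158 (Huh7), at the smallest fitting length of 3368 bases. With the GENCODE length of 12866 bases the SD was 0.0773 (Huh1) and 0.0809 (Huh7).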
